A study of Mus musculus with 39 samples.

Results

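Granulosa cells, the steroid-producing somatic cells that surround the oocyte in the ovarian follicle, were compared with the cells obtained from them after 16 days of reprogramming, which the study's design text also calls XEN-like cells. The comparison used 4 of the 39 RNA sequencing libraries of the series, 2 of granulosa cells and 2 of day 16 cells, chosen by their labels. All 4 came from mice of strain C57BL6/CBA. The design text gives a question for these libraries, which is how near the transcriptome of the day 16 cells lies to that of possible starting cells. The granulosa cells carry no treatment in the labels. The day 16 cells precede the step at which crotonic acid was added to some cultures, from day 16 to day 28, and so had none. The agents used for reprogramming up to day 16, the age of the mice and the number of animals or cultures behind each library are not given in the sources used here, so the spread between libraries may be technical.

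Granulosa cells take up and synthesize cholesterol, cleave its side chain in mitochondria with Cyp11a1 and hold their identity through transcription factors such as Foxl2 and the NR5A nuclear receptors. Extraembryonic endoderm (XEN) cells derive from the primitive endoderm of the blastocyst, depend on the transcription factors Gata6, Gata4, Sox17 and Sox7, and deposit basement membrane. In chemical reprogramming of mouse fibroblasts, a XEN-like state that expresses Gata4, Sox17 and Sall4 is known as an intermediate on the way to pluripotent cells.

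Levels are FPKM, read fragments normalized for the length of the transcript and the size of the library, and each is given for granulosa cell libraries 1 and 2 and then for day 16 libraries 1 and 2, as deposited. A difference is the mean of the day 16 libraries minus that of the granulosa cell libraries in log2(FPKM + 1) after quantile normalization over the 4 libraries. A gene is said to be higher or to have risen in day 16 cells where its lower day 16 library lay at least 1 log2 (2-fold on that scale) above its higher granulosa cell library, and to be lower or to have fallen in the mirrored case. It was kept where all 4 libraries lay within 1 log2 of each other. These are descriptions and not tests, and the gene lists used below were chosen with earlier results of these data known. The 2 day 16 libraries lie in one deposited table and each granulosa cell library in another, the tables were made separately, and table and group cannot be told apart.

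Of 17513 gene symbols found in all 3 tables, 12150 reached 1 FPKM in at least 2 libraries and were counted. The granulosa cell libraries, although from different tables, had a Pearson r of 0.991 across genes, with 0.609% of genes 1 log2 or more apart. Day 16 libraries had an r of 0.984, with 0.930% of genes that far apart. Across groups r was 0.781 to 0.816, and 24.3% to 33.2% of genes lay 1 log2 or more apart. Genes are not independent replicates, and depth is unknown because the tables hold no counts. Day 16 library 2 read relatively higher than library 1 for long transcripts (Spearman rho of the difference with length 0.47, against −0.06 between the granulosa cell libraries). The difference between the groups had a rho of −0.24 with length, and counts with that trend removed are given for all genes and for some of the gene lists.

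In day 16 cells 1379 genes were higher, 11.3% of those counted, and 1025 were lower (8.44%), together 19.8%. Another 7413 genes, or 61%, were kept, and 2333 (19.2%) lay between these classes. These shares of all counted genes are the scale for the list counts below. Without day 16 library 2 the lower genes numbered 1744. By the looser rule that the groups merely did not overlap, 36.5% of genes were higher and 45.5% lower. Higher genes made up 57.4% of those past the rule, 65.5% without quantile normalization and 69.2% with median-ratio scaling, which moved the median difference of all genes from −0.10 to 0.04 log2. Rises were larger than falls at the extremes. Past 3 log2 there were 295 higher and 92 lower genes. Of the higher genes 595 were under 1 FPKM in both granulosa cell libraries, and of the lower genes 211 were under 1 FPKM in both day 16 libraries. Such genes could be counted only through the group in which they were high. The genes that fell held 18.0% and 17.8% of the summed FPKM of counted genes in granulosa cells and 3.35% and 4.23% in day 16 cells, and those that rose went from 3.73% and 3.68% to 17.2% and 16.8%.

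**Figure D1:**
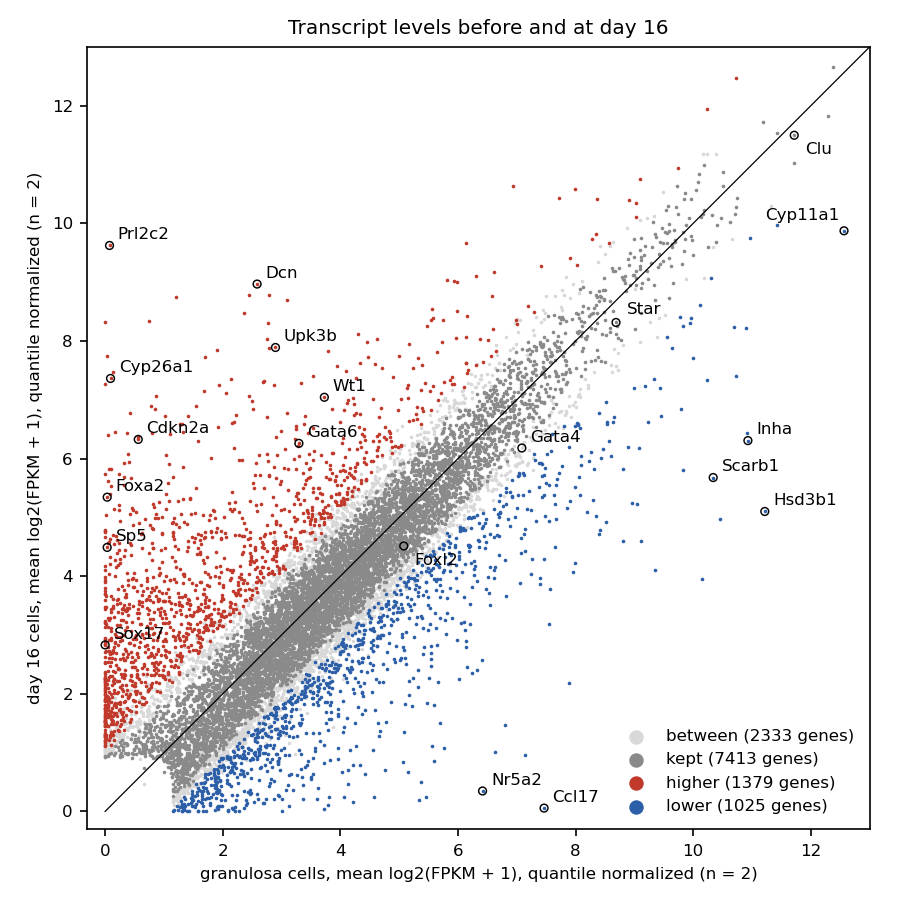
Mean level of each counted gene in granulosa cells (x axis) and day 16 cells (y axis), both as quantile-normalized log2(FPKM + 1) over 2 libraries; colours mark the 4 classes and the line marks equal levels. Steroid and inhibin genes at the right (Cyp11a1, Hsd3b1, Inha) lay far below the line, a column of genes near 0 in granulosa cells rose along the left edge, and Star, Clu and Foxl2 stayed near the line.

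The label of the day 16 cells was set against markers first. Gata4, a GATA factor of both gonadal soma and endoderm, stood at 129.8 and 112 FPKM in granulosa cells and at 81.2 and 77.8 in day 16 cells, a difference of −0.91, so it was abundant from the start and neither rose nor passed the rule for a fall, except for a fall without granulosa cell library 2. Sox17, an endoderm factor, was listed at 0 in both granulosa cell libraries and stood at 8.50 and 4.16 in day 16 cells. Cyp11a1 was at 5407 and 5339 and then at 1150 and 1075 (−2.69), which left 20.7% of its mean level. Foxl2, the factor that maintains ovarian identity, was kept at 35.0 and 27.7 against 21.4 and 23.3 (−0.56). In the GENCODE M21 annotation of GRCm38, Gata4 lies at chr14:63198922-63271692 on the minus strand, Sox17 at chr1:4490931-4497354 on the minus strand, Cyp11a1 at chr9:58006411-58027023 on the plus strand and Foxl2 at chr9:98955288-98958543 on the plus strand.

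Among 7 markers of extraembryonic endoderm, 3 of the 6 counted were higher and none was lower, but Gata4 and Dab2 were lower without granulosa cell library 2, and Dab2 without day 16 library 2. Their summed level was 183 and 161 FPKM in granulosa cells and 228 and 243 in day 16 cells, a narrow change because Gata4 and Dab2 were already present. Sall4, part of the XEN-like state known from fibroblasts, was at 0.06 and 0 in granulosa cells and 0.06 and 0.14 in day 16 cells. Of the endoderm markers, then, Gata6, Sox17 and Foxa2 were higher in day 16 cells, and Gata4, Dab2 and Sox7 lay between the classes. Sall4 was near 0 in both groups. By sum, granulosa cell markers fell from 10186 and 9129 to 1372 and 1267 FPKM, with 4 of 6 counted lower and Foxl2 and Amhr2 kept. In bulk RNA, fewer cells of a type and less RNA per cell cannot be told apart.

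Markers of other cell types moved as well. Of 7 listed genes of mesothelium and ovarian surface epithelium, the epithelial covering of the ovary, 6 were found in all 3 tables. All 6 were higher, and their sum went from 29.6 and 30.2 to 867 and 731 FPKM. Of 7 counted fibroblast markers 6 were higher (sum 44.5 and 47.6 to 395 and 524), with Pdgfrb under 0.6 in every library. Theca and stroma markers summed to 11.7 and 11.2 and then to 628 and 549, mostly as Dcn, while Cyp17a1, the defining theca enzyme, was at 0 in granulosa cells and 0.09 and 0.18 in day 16 cells. Smooth muscle markers were higher for 4 of 5 (69.9 and 69.4 to 265 and 220), and endothelial ones for 2 of 4 (7.43 and 7.36 to 53.4 and 49.5), with Pecam1 under 0.8 throughout. Macrophage and leukocyte markers went the other way, with 7 of 9 lower and sums of 49.6 and 46.0 against 15.8 and 10.1, and Tyrobp was listed at 0 in both day 16 libraries. Oocyte markers summed to 5.41 and 5.0 in granulosa cells and to 1.10 and 1.24 in day 16 cells, red blood cell markers to 2.08 and 3.82 and then to 11.3 and 8.65, and pluripotency markers to no more than 4.02 in any library. The part of such cells in the results was not tested.

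**Figure D2:**
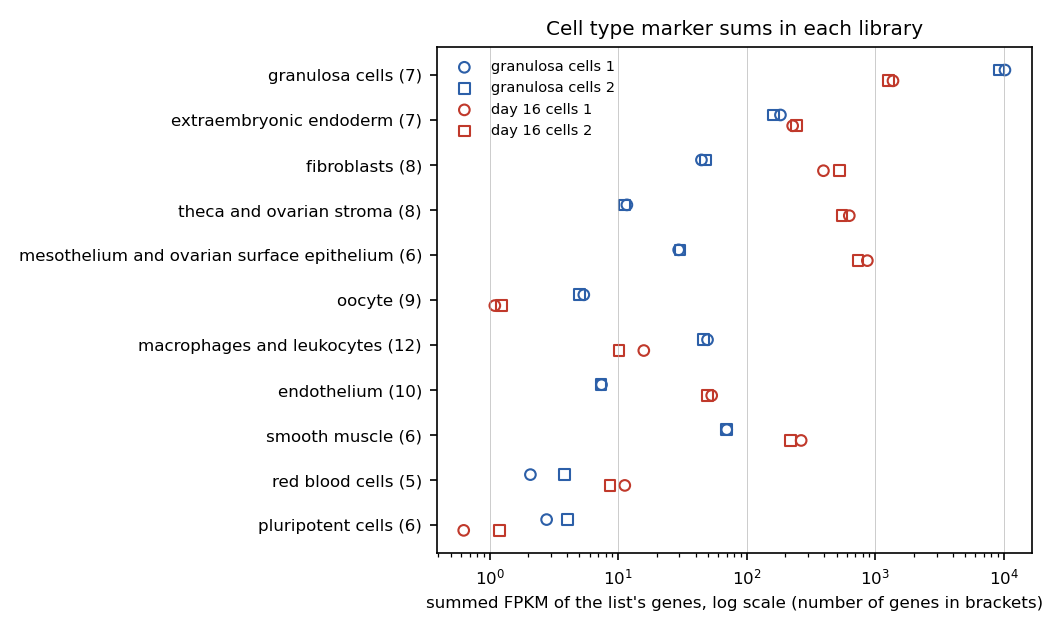
Summed FPKM (log scale) of the genes of each cell type marker list in the 2 granulosa cell libraries (blue) and the 2 day 16 libraries (red). The granulosa sum fell from 10186 and 9129 to 1372 and 1267, the mesothelial, stromal and fibroblast sums rose, and macrophage, oocyte and pluripotent sums were lower in day 16 cells.

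Fibroblasts gave an outside scale for what was lost. A gene was taken as granulosa-enriched where granulosa cell library 2 held at least 10 FPKM and at least 2 log2 more than the fibroblast library of the same table, which 499 counted genes met. Of these, 229 (45.9%) were lower in day 16 cells, against 8.44% of all counted genes, 159 (31.9%) were kept and 37 were higher. Selection on library 2 favours a fall. Such genes also had more room to fall than all counted genes, some of which were under 1 FPKM there, so the shares are not like for like. With library 1 as the single granulosa cell library 254 (50.9%) were lower and 165 (33.1%) kept, and of all 12150 counted genes 1187 were lower. Library 1 is close to library 2 (r 0.991), so its use does not remove that effect of level. Fibroblast-enriched genes, chosen the other way round, numbered 362. Of these, 189 (52.2%) were higher in day 16 cells, against 11.3% of all counted genes, and 16 were lower. With granulosa cell library 1 alone the higher ones numbered 190 (52.5%), and 1476 of all 12150 counted genes were higher. Being low in granulosa cells, such genes had little room to fall, and some could be counted only through the day 16 libraries. The higher share was 44.4% of 426 genes without the filter on low values and 65.2% of 253 at 5 FPKM in 2 libraries.

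The largest falls were spread over signalling, metabolism and chromatin. Ccl17, a chemokine that draws T cells, dropped from 150.6 and 160.2 FPKM to 0 and 0.11, and macrophage markers fell beside it. Akr1cl, an aldo-keto reductase gene, was at 922 and 1010 and then at 14.9 and 13.8 (−6.20). Hsd3b1, which converts pregnenolone to progesterone, went from 2383 and 2228 to 36.6 and 33.6 (−6.12). In each of these the libraries of a group lay close together, while the distance between the groups follows from how the genes were chosen.

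Nr5a2, a nuclear receptor needed in granulosa cells for ovulation, fell from 77.6 and 73.5 FPKM to 0.31 and 0.42 (−6.07). Its paralog Nr5a1 was kept, at 68.4 and 62.2 against 48.6 and 45.2 (−0.71). Smarca1, an ATPase of chromatin remodelling complexes, was at 115 and 133 and then at 0.88 and 1.42 (−6.18). Crabp2, which carries retinoic acid to its receptors, fell by 5.70 log2 and Ephx2, a soluble epoxide hydrolase, by 5.49. Dpysl4, Ppp1r14a, Cemip (a hyaluronan-degrading protein), Plxnc1 (a semaphorin receptor) and Aff2 completed the 12, with differences of −5.62 to −5.16.

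Genes of granulosa identity and hormone signalling fell more often than they rose. Of 21 counted, 12 were lower, 4 higher and 3 kept, with a median difference of −1.32 against −0.10 for all genes. Inha, the alpha subunit of inhibin, went from 2309 and 1490 FPKM to 98.3 and 77.8 (−4.63). Inhba, the beta subunit it shares with activin A, went from 456 and 554 to 24.4 and 23.6 (−4.51). Serpine2, a secreted protease inhibitor, fell from 166 and 163 to 10.8 and 14.3.

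Receptors by which granulosa cells respond to hormones went both ways, from lower levels. Esr2, estrogen receptor beta, was at 7.85 and 8.16 FPKM and then at 0.10 and 0.09 (−3.03). Fshr, through which follicle-stimulating hormone acts, was at 2.18 and 1.63 and then at 0 and 0.02, and Lhcgr, that of luteinizing hormone, at 1.57 and 1.66 and then at 0.13 and 0.15. Esr1, estrogen receptor alpha, was higher (0.67 and 0.68 to 2.62 and 3.71, 1.16), though not past the rule without granulosa cell library 2, and so was Pgr, the progesterone receptor (0.05 and 0.04 to 1.77 and 3.08, 1.60). Amhr2, the receptor of anti-Müllerian hormone, was kept (49.2 and 42.6 against 65.9 and 57.4). Wt1, a zinc finger factor of gonadal progenitors, granulosa cells and mesothelium, rose from 13.4 and 11.8 to 117 and 178 (3.32), and the mesothelial list rose beside it. The identity list therefore held genes that fell, genes that were kept and genes that rose.

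Steroid synthesis fell at several steps and was kept at the first. Of 13 genes counted, 7 were lower, 2 higher and 3 kept (median −1.45), and the list summed to 10399 and 10407 FPKM in granulosa cells and 2712 and 2555 in day 16 cells. Star, which carries cholesterol into mitochondria, was kept at 340 and 390 against 341 and 373. Fdx1 and Fdxr, the electron carriers of Cyp11a1, fell by 1.57 and 1.45 log2. Hsd17b1, which makes estradiol from estrone, dropped from 60.3 and 55.1 to 4.36 and 3.17, and Por, the reductase of microsomal P450 enzymes, was kept by the rule at 150 and 160 against 286 and 322, but not without quantile normalization.

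Within the 3beta-hydroxysteroid dehydrogenase family the isoforms moved in opposite directions. Against the fall of Hsd3b1, Hsd3b6 rose from 0.62 and 0.72 FPKM to 171 and 133 (6.19). Its level at day 16 was above that of Hsd3b1 in both libraries. These genes lie close together on chromosome 3 (Hsd3b6 at chr3:98805504-98814443, Hsd3b1 at chr3:98852194-98859794, minus strand, GRCm38) and close in sequence, and how the authors assigned reads shared between such copies is not given in the sources used here. Cyp11b1, a steroid hydroxylase of the adrenal cortex, was at 0.11 and 0.17 and then at 9.53 and 11.2.

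Genes of cholesterol uptake and storage were past the rule in both directions. Scarb1, the receptor for high-density lipoprotein that supplies cholesterol to steroid-producing cells, went from 1295 and 1022 FPKM to 58.4 and 50.8 (−4.66). Of 14 counted, 5 were lower, 2 higher and 4 kept, against 2 lower and 2 higher without quantile normalization and 2 lower and 3 higher with median-ratio scaling. Plin2, the coat protein of lipid droplets, rose from 28.7 and 30.3 to 238 and 251, and Cyp27a1, a sterol hydroxylase, from 1.65 and 2.04 to 24.8 and 19.3.

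Of 22 counted cholesterol synthesis genes 11 were lower and 8 kept (median −1.07). Idi1, an isomerase of the isoprenoid steps, fell by 2.41 log2, and Fdps, which makes farnesyl diphosphate, went from 324 and 337 FPKM to 101 and 75.1. Msmo1, a sterol demethylating enzyme, had the largest difference of the list (290 and 264 to 59.9 and 61.3, −2.50). Srebf2, the transcription factor that controls these genes, was kept at 48.4 and 37.5 against 29.6 and 42.9.

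Of 14 counted genes tied to ovulation and the corpus luteum, 6 were higher, 1 lower and 3 kept, and 4 lay between these classes (median 0.98). Without day 16 library 1 or library 2 the lower ones numbered 2. Areg, an EGF-family ligand, rose from 0.09 and 0.17 FPKM to 38.6 and 33.7, and Plat, a plasminogen activator also typical of parietal endoderm, from 5.68 and 6.61 to 256 and 282. Akr1c18, which degrades progesterone, rose from 15.9 and 16.1 to 77.7 and 65.0. Sfrp4, a secreted Wnt antagonist, fell from 1780 and 1885 to 93.6 and 100.3, and Ptgs2 and Vcan were kept.

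**Figure D3:**
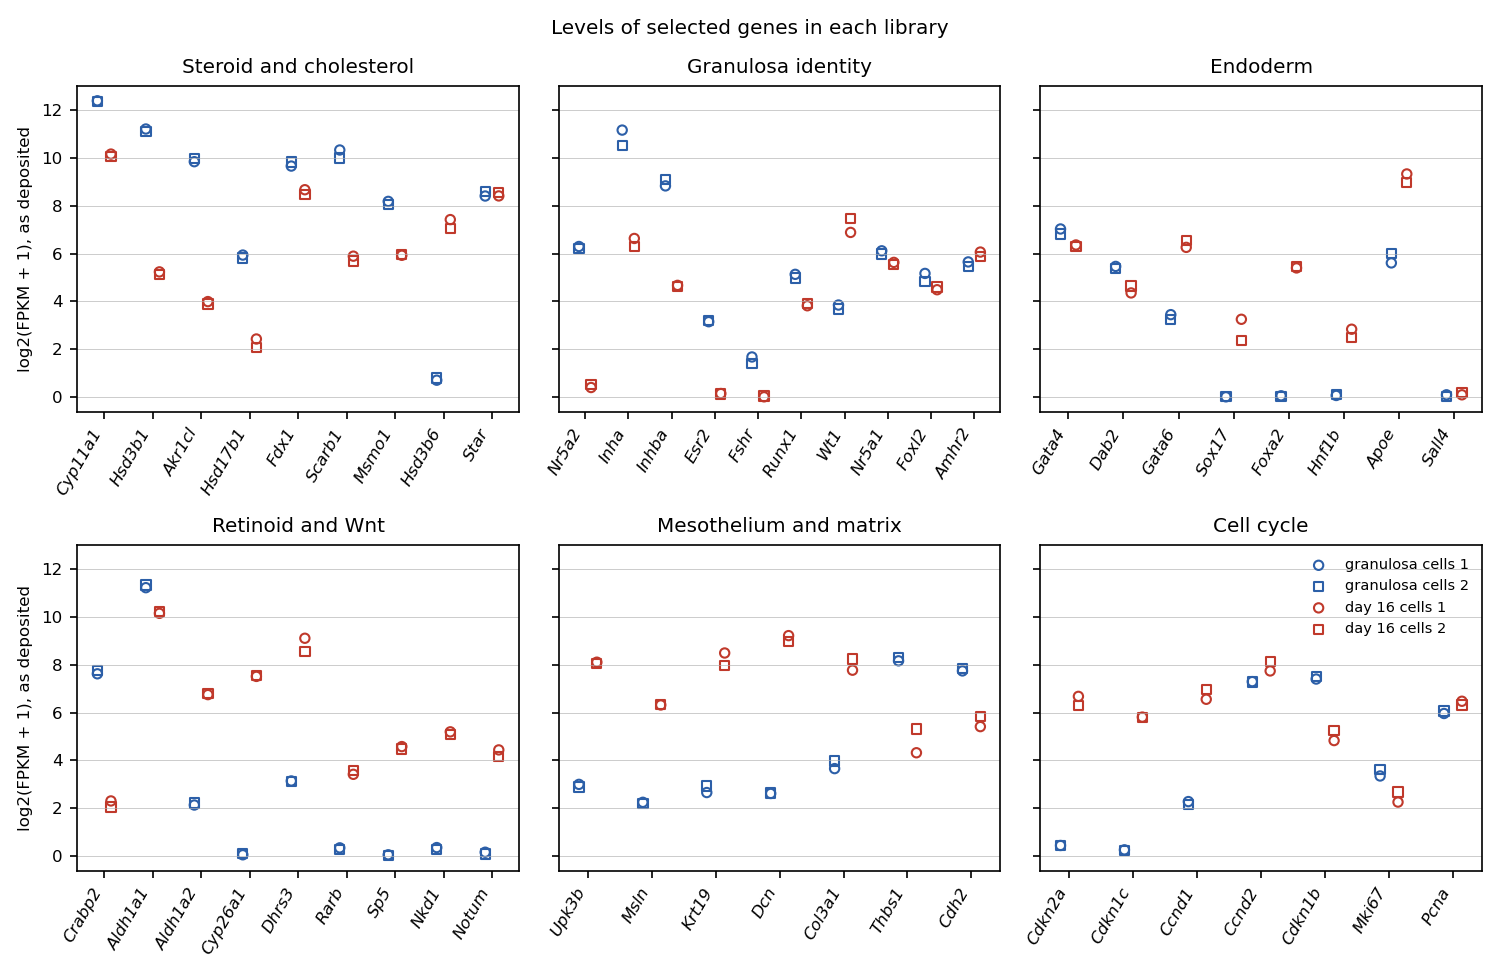
Levels of selected genes as log2(FPKM + 1) in each granulosa cell library (blue) and day 16 library (red), as deposited, in 6 panels by role. The 2 libraries of a group lay close together for nearly every gene shown. Cyp11a1, Nr5a2 and Inha fell, and Foxa2, Cyp26a1, Upk3b and Cdkn2a rose from near 0 or low values. Star, Nr5a1 and Foxl2 were kept by the rule, though Nr5a1 and Foxl2 were lower in both day 16 libraries than in either granulosa cell library.

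Beside these losses, abundant granulosa-enriched genes stayed. Clu, a secreted chaperone, was at 3316 and 3042 FPKM in granulosa cells and 3701 and 3052 in day 16 cells (−0.22), and its fibroblast and embryonic stem (ES) cell levels were 8.20, 5.80 and 5.69. Metallothioneins Mt1 (1885 and 1355 against 1880 and 1288) and Mt2 (978 and 785 against 976 and 710) were kept, and so was Erdr1 (461 and 534 against 794 and 568). Mt2 was not kept with the length trend removed. The ferritin genes Ftl1 and Fth1, Aes, a Groucho-family corepressor, and Chchd10, a mitochondrial protein, were kept by the rule with differences of 0.28 to 0.54, and none of these 4 was kept without quantile normalization or with median-ratio scaling.

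Of 18 counted basement membrane genes, which both granulosa cells and XEN cells express, 10 were kept, a share near the 61% of all counted genes, 3 were higher and 2 lower. With the length trend removed 5 were higher and 1 lower. The median difference was −0.05 and its sign turned to 0.09 without quantile normalization, 0.17 with median-ratio scaling, 0.38 with the length trend removed and 0.14 without day 16 library 1. Col4a2 was at 280 and 346 FPKM against 286 and 345, and Hspg2, perlecan, at 86.4 and 77.4 against 83.1 and 122. Lama5, a laminin alpha chain, rose from 1.13 and 1.00 to 20.6 and 34.6, and Nid1, nidogen, from 4.46 and 4.05 to 22.6 and 28.6. Col4a5 fell from 61.6 and 70.7 to 13.5 and 22.7. Its neighbour Col4a6 fell by 1.62 log2, though not past the rule once the length trend was removed.

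Most DNA replication and mitosis genes were kept. Of 26 counted, 20 were kept, 2 were higher and none was lower, against 61%, 11.3% and 8.44% of all counted genes. The median of −0.06 became 0.04 without day 16 library 2, when 4 were higher. Ccne2 was lower without granulosa cell library 1 or day 16 library 1. Pcna, the polymerase clamp, was at 61.3 and 66.0 FPKM against 88.0 and 79.1, and Mcm7, a helicase subunit, at 32.0 and 32.9 against 28.1 and 29.0. Rrm2, a ribonucleotide reductase subunit, rose from 46.7 and 45.4 to 138 and 146 (1.34), though not past the rule with the length trend removed, and Cdt1, a licensing factor, rose by 1.24 log2, not past the rule without day 16 library 1.

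Regulators of the G1 phase moved further than the replication genes they govern. Of 15 counted, 4 were higher, 2 lower and 7 kept. Cdkn2a, the locus of the INK4A and ARF inhibitors, rose from 0.35 and 0.34 FPKM to 101 and 77.8 (5.76). Cdkn1c, an imprinted inhibitor, rose from 0.19 and 0.16 to 55.1 and 54.3 (5.36), and the cyclin gene Ccnd1 from 3.83 and 3.4 to 93.2 and 125. Cdkn1b, the inhibitor typical of resting and luteinizing granulosa cells, fell from 169 and 183 to 27.4 and 37.0 (−2.69), and Ccnd2, the main D cyclin of granulosa cells, was kept at 156 and 155 against 214 and 282. Gene-level values do not separate the transcripts of the Cdkn2a locus.

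Among what was gained, the largest differences belonged to genes of unrelated families. Prl2c2, a proliferin of the prolactin family made by placental giant cells, went from 0.07 and 0 FPKM to 1065 and 817, and Prl2c3 from 0 in both to 406 and 328. These are near-identical copies, so the division of reads between them is uncertain. Aldh3a1, an aldehyde dehydrogenase, was at 0.03 and 0 and then at 263 and 233, and Tff1, a trefoil peptide of mucosal surfaces, at 0.59 and 0.46 and then at 464 and 296.

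Ly6a, which encodes the surface antigen Sca-1, rose from 1.25 and 1.06 FPKM to 536 and 434 (7.54), and has close relatives in its cluster. P2rx2, an ATP-gated channel, reached 225 and 179, and Car3, a carbonic anhydrase, 191 and 157, from no more than 0.13. Dcn, decorin, rose 107-fold in mean FPKM, from 5.11 and 5.20 to 597 and 504, and Ass1, an enzyme of arginine synthesis, 109-fold, from 4.28 and 4.87 to 528 and 469. Fndc1 and S100g, a vitamin D-dependent calcium-binding protein, rose from at most 0.24 to 71.8 and 119 and to 174 and 88.6. None of the 12 had a granulosa cell level above 5.20 FPKM. The rule by which they were chosen leaves no overlap of the groups.

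At day 28 without crotonic acid, all 12 of these genes stood at 107.8 FPKM or more, from 107.8 and 110.0 for Aldh3a1 to 919 and 734 for S100g. In the 6 pluripotent lines derived from granulosa cells (gPSC lines), the medians were at most 0.72 FPKM for 8 of them, and 1.24 for Fndc1, 16.8 for Dcn, 31.8 for Ly6a and 236 for Ass1. Among the 12 with the largest falls, Nr5a2 was at 0.43 and 0.66 at day 28 and had a median of 11.5 in the lines, and Ccl17 was listed at 0 in both day 28 libraries. These levels come from separately made tables and are set side by side only.

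**Figure D4:**
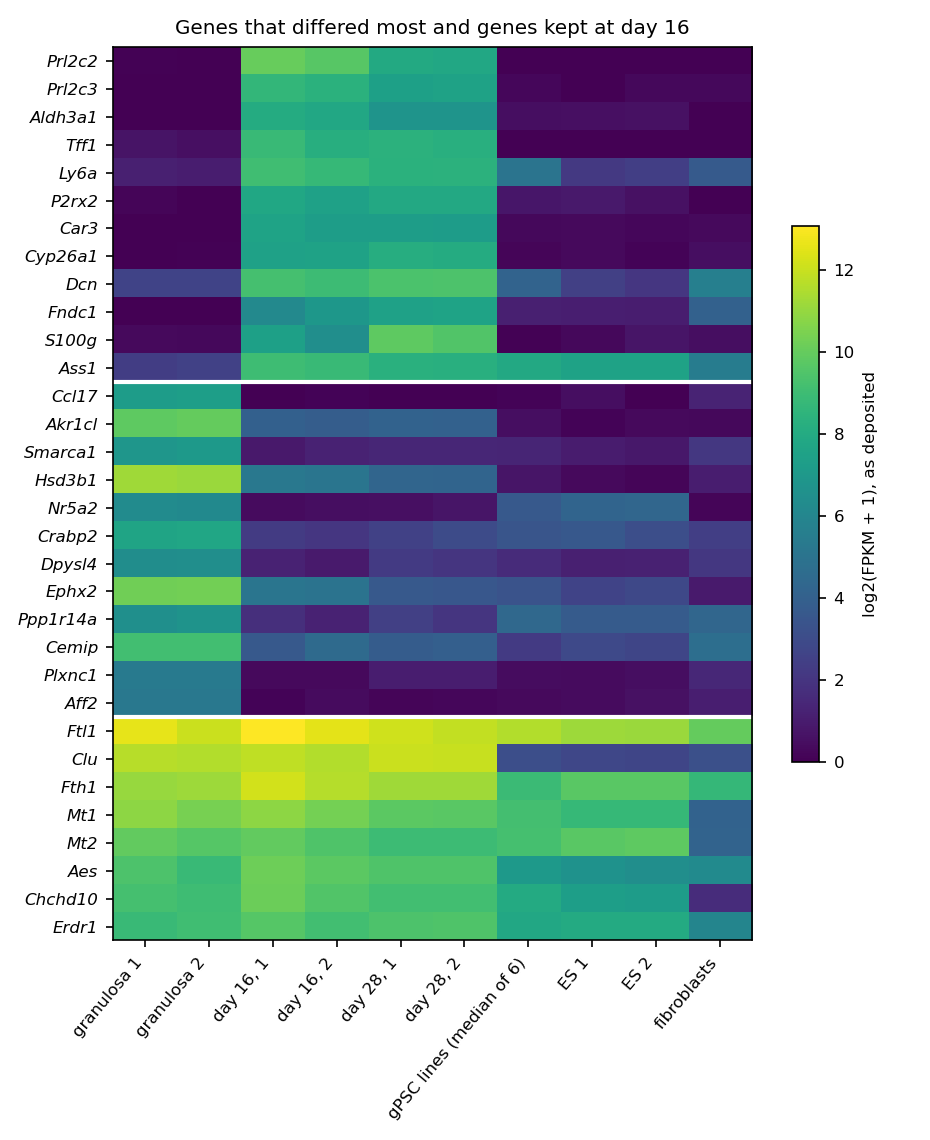
Levels as log2(FPKM + 1), as deposited, of the 12 genes with the largest rises (top), the 12 with the largest falls (middle) and 8 kept granulosa-enriched genes (bottom) in granulosa cells, day 16 cells, day 28 cells without crotonic acid, gPSC lines, ES cells and embryonic fibroblasts. The top block was at 107.8 FPKM or more at day 28, and apart from Dcn, Ly6a, Fndc1 and Ass1 its median was at most 0.72 FPKM in the gPSC lines.

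The extraembryonic endoderm list was higher for 13 of 24 counted genes and lower for none, with 6 kept (median 1.57). Leaving out 1 library gave lower members, Gata4 and Dab2 without granulosa cell library 2, Dab2 and Col4a1 without day 16 library 2, and Col4a1 without granulosa cell library 1. Foxa2, a forkhead factor of endoderm, rose from 0.03 and 0 FPKM to 41.2 and 43.0 (5.31), and Gata6 from 9.87 and 8.45 to 75.7 and 92.8 (2.96). Pdgfra, the receptor that marks primitive endoderm and also stroma, went from 0.43 and 0.47 to 25.3 and 39.4, and Srgn, serglycin, from 0.92 and 1.13 to 34.9 and 26.5. Sparc, a matrix protein abundant in parietal endoderm, was kept at 1352 and 1197 against 1335 and 1192. The visceral endoderm genes Cubn, Amn and Ttr were under 1 FPKM in every library and were not counted, and Afp was at 0 in granulosa cells and at 2.28 and 0.90 in day 16 cells. The apolipoprotein genes Apoa1 (0.33 and 0.64 to 9.54 and 5.17) and Apoe (47.8 and 63.2 to 646 and 506), which visceral endoderm also expresses, were higher.

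Retinoic acid genes gave the largest median of the 30 lists, 3.12, with 11 of 17 counted higher, 2 lower and 2 kept. Retinoic acid is made from retinol in 2 oxidation steps, binds nuclear receptors and is cleared by Cyp26 enzymes, whose genes it induces. On the side of synthesis, Rdh10, the retinol dehydrogenase of the first step, rose from 4.06 and 4.16 FPKM to 57.2 and 78.9, and Aldh1a2, a retinaldehyde dehydrogenase of the second step, from 3.37 and 3.62 to 107 and 111. Aldh1a1, of the same family, fell from 2406 and 2603 to 1142 and 1195, though not past the rule with median-ratio scaling, and so remained the more abundant.

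Dhrs3, which turns retinaldehyde back to retinol, rose from 7.79 and 7.69 FPKM to 553 and 377 (5.60), and Tgm2, a transglutaminase inducible by retinoids, from 4.11 and 4.36 to 399 and 394 (6.11). Rarb, a receptor gene that retinoic acid induces, was at 0.26 and 0.20 and then at 9.66 and 10.8, whereas the receptors Rara (9.11 and 8.02 against 12.4 and 12.7) and Rarg (13.9 and 12.2 against 6.88 and 7.57) were kept. Rarg was not kept with the length trend removed. Cyp26a1, which degrades retinoic acid, rose from 0.03 and 0.06 to 182 and 188 (7.27). Its level was 280 and 267 at day 28, and at most 0.28 in the ES libraries and 0.22 in the gPSC lines.

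The start region of Cyp26a1 is shown because it rose most in the list and holds, in capitals, the letters of a retinoic acid response element with a 5-base spacing. The window is chr19:37697558-37697857 on the plus strand (RefSeq, GRCm38.p6), 250 bases before the start to 50 after, and the match begins 32 bases before the start, as 2 copies, 5 bases apart, of the half-site AGTTCA read on the opposite strand.
Cyp26a1: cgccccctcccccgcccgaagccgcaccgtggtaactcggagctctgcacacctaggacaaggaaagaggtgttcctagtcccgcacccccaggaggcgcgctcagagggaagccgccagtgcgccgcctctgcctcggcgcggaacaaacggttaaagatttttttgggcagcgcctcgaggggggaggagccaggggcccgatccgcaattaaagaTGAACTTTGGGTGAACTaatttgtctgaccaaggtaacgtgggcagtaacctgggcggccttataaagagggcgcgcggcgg
Searched on both strands, these letters were in 2 of the 9383 counted genes with a RefSeq window (0.0213%), and in 1 of the 991 higher ones. Only this spelling of the half-site, the one in the Cyp26a1 window, was searched. The count therefore does not give the frequency of retinoic acid response elements in other windows. A second window, that of the kept receptor gene Amhr2 at chr15:102445117-102445416 on the plus strand, shows in capitals the half-site CAAGGTCA that NR5A factors bind, at 232 bases before the start.
Amhr2: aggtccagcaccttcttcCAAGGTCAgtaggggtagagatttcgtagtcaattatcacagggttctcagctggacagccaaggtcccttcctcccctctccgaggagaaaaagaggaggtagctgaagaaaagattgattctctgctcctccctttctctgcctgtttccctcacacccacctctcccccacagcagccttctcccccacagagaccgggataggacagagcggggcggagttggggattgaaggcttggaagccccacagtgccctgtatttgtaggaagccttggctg
That half-site was in 1.34% of all windows, 1.64% of those of lower genes, 1.32% of kept and 1.41% of higher ones. The AP-1 site TGAGTCA was in 4.66% of all windows, 7.97% of those of higher genes, 6.06% of lower and 3.90% of kept ones. The letters are a description of these windows and not of binding.

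Feedback targets of Wnt signalling, genes that the pathway switches on and that mostly restrain it, were higher for 10 of 12 counted and kept for 2 (median 2.00). Sp5, a transcription factor directly downstream of beta-catenin, rose from 0.03 and 0 FPKM to 22.9 and 21.2. Nkd1, a cytoplasmic inhibitor, rose from 0.27 and 0.19 to 35.6 and 32.6, and Notum, an extracellular one, from 0.11 and 0.05 to 20.7 and 16.8. Axin2, the usual readout gene, was already at 11.1 and 10.6 and reached 40.7 and 49.1. The transcription factor gene Tcf7 and the receptor-removing ligase gene Znrf3 were kept, Znrf3 not with a pseudocount of 0.1 or without day 16 library 1.

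In the fetal gonad list 8 of 15 counted were higher, 1 was lower and 5 were kept (median 1.16). Wnt4, a ligand of the ovarian pathway, rose from 45.5 and 51.5 FPKM to 440 and 318 (2.61), and Rspo1, which enhances Wnt signalling there, from 0.72 and 0.85 to 11.3 and 12.3. Irx3, a homeobox gene of fetal granulosa cells, rose from 2.41 and 2.21 to 31.7 and 30.9. Sox9, the Sertoli factor that Foxl2 represses, was kept at 3.39 and 3.28 against 5.78 and 5.87, though not with the length trend removed. Dmrt1 was at most 0.07 in any library. Bmp2, Irx5, Nr2f1, Nr2f2 and Tcf21 were the other higher members, and Dhh, a ligand of Sertoli and granulosa cells, was the lower one.

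Signals of the TGF-beta family were mixed. Of 17 counted, 8 were higher, 2 lower and 6 kept, against 11.3%, 8.44% and 61% of all counted genes. Bmp4 rose from 0.97 and 1.46 FPKM to 13.3 and 10.7, Tgfb2 from 9.76 and 9.52 to 43.4 and 51.7, and Ltbp2, a matrix protein related to latent TGF-beta binding proteins, from 0.44 and 0.53 to 12.4 and 16.7. Feedback genes of the activin and TGF-beta branch fell, Skil from 25.4 and 25.5 to 1.57 and 2.59 and Smad7 from 33.0 and 28.1 to 6.07 and 7.82. Id1 and Id2, targets of BMP, were kept, although Id1 was not without quantile normalization or with median-ratio scaling.

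Epithelial and mesenchymal lists both held more higher than lower genes. Of 13 counted epithelial genes 6 were higher, 2 lower and 4 kept (median 0.85), with 1 lower without quantile normalization or with median-ratio scaling. Krt19 rose from 5.28 and 6.6 FPKM to 360.2 and 248 (5.28), Cdh1, the epithelial cadherin, from 0.22 and 0.14 to 15.2 and 28.5, Cldn3, a tight junction protein, from 1.91 and 1.67 to 57.4 and 40.4, and Epcam from 1.08 and 1.36 to 12.2 and 8.69. Cdh2, the cadherin that joins granulosa cells, fell from 214 and 229 to 41.6 and 55.6. Markers of mesothelium and ovarian surface epithelium were among the largest rises of this kind, with Upk3b at 6.96 and 6.39 and then 276 and 263, and Msln, mesothelin, at 3.73 and 3.55 and then 78.9 and 80.3.

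In the mesenchymal and contractile list 9 of 21 were higher, 3 lower and 5 kept (median 1.05). Twist1, a mesenchymal transcription factor, rose from 0.38 in both libraries to 13.2 and 13.1 FPKM, Myl9, a myosin light chain of contractile cells, from 24.9 and 20.1 to 289 and 167, and Postn, periostin, from 0.19 and 0.14 to 8.07 and 8.52. Cdh11 reached 29.6 and 40.3, but its granulosa cell libraries differed (1.47 and 7.94). Fibrillar collagen and matrix genes were higher for 12 of 25 and lower for 2 (median 0.96), with Col3a1 at 11.6 and 14.7 and then 218 and 303, and Col6a2 at 1.31 and 1.38 and then 62.9 and 62.1. Thbs1, thrombospondin, fell from 287 and 316 to 18.9 and 38.8. Fibroblast, stromal and smooth muscle markers rose beside these lists.

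Core pluripotency genes were low in all 4 libraries. Of 22 listed genes, 7 were counted, of which 4 were higher, 1 lower and 1 kept. Pou5f1 fell from 1.70 and 1.71 FPKM to 0.06 and 0.12, and Nanog, Sox2, Zfp42, Esrrb, Dppa2 and Dppa4 were at most 1.25 in any library. The higher members were Klf4 (8.44 and 7.27 to 42.4 and 49.7), Klf2, Klf5 and Tbx3 (0.27 and 0.24 to 4.54 and 5.46), transcription factors that also act in many epithelia. Of 8 counted DNA methylation genes none was higher or lower and 4 were kept, among them Dnmt1 at 20.3 and 22.7 against 11.8 and 15.7 (list median −0.80). Without day 16 library 2, 3 of the 8 were lower, Dnmt3a, Tet2 and Tet3.

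Imprinted genes included some of the largest rises. Of 16 counted, 8 were higher, 1 lower and 5 kept (median 1.54). Igf2, the fetal growth factor expressed from the paternal allele, rose from 1.72 and 2.63 FPKM to 254 and 236 (6.03), and Mest from 3.91 and 5.36 to 149 and 146 (4.61). Grb10, a growth inhibitor, rose from 2.83 and 2.57 to 23.9 and 33.3, and Dlk1 from 14.2 and 11.6 to 73.8 and 59.9. Gnas and Sgce were kept, Sgce not with median-ratio scaling. Allelic use is not measured by these values.

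Oxidant and xenobiotic response genes were higher for 11 of 24 counted, lower for none and kept for 7 (median 1.28), Slc7a11 being lower without granulosa cell library 1. Ephx1, the microsomal epoxide hydrolase, rose from 63.6 and 61.4 FPKM to 1049 and 884 (3.53), and Cyp1a1, a target of the aryl hydrocarbon receptor, from 0.14 and 0.20 to 8.72 and 11.6. The glutathione transferase gene Gsta1 rose from 9.41 and 9.47 to 217 and 143, with the caution that its family holds near-identical copies. Txnrd1 and Sod1 were kept. Slc7a11, the cystine transporter, was at 1.34 in one granulosa cell library and 99.8 in the other, the largest disagreement among named genes between them, so no direction is given for it.

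Of the metabolic lists given here, glycolysis held the largest share of higher genes. In glycolysis 7 of 20 were higher, against 11.3% of all counted genes, none was lower and 12 were kept (median 0.81). Without quantile normalization 9 were higher, and with median-ratio scaling 10 were higher and 7 kept (median 1.05). With the length trend removed 5 were higher. Ldhb, a lactate dehydrogenase subunit, rose from 46.1 and 54.7 FPKM to 634 and 509 (3.23), and the transporters Slc2a3 and Slc16a3 by 2.20 and 2.18 log2, while Gapdh (2762 and 2602 against 3751 and 2508) and Aldoa were kept. Oxidative phosphorylation genes were kept for 20 of 27, against 61% of all counted genes, with Ndufa1 the single higher gene. Kept ones numbered only 13 without quantile normalization and 12 with median-ratio scaling. Higher ones numbered 4 without quantile normalization or day 16 library 2, 5 with median-ratio scaling and 2 without granulosa cell library 1 or without library 2. The list summed to 3839 and 4166 FPKM in granulosa cells and 7511 and 5750 in day 16 cells. Of 21 fatty acid oxidation genes 2 were higher and 15 kept, with Acaa2, a mitochondrial thiolase, going from 54.4 and 57.9 to 334 and 278. The higher ones numbered 4 without quantile normalization, with median-ratio scaling, or without granulosa cell library 2 or day 16 library 2, and 1 with the length trend removed. In the serine, glycine and folate list 11 of 16 were kept, against 61% of all counted genes. Gldc and Psph were higher, and Mthfd2, a mitochondrial folate enzyme, fell from 36.9 and 43.3 to 11.97 and 12.2. The share of higher genes in this list and in fatty acid oxidation was near the 11.3% of all counted genes.

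Most listed secreted immune mediators rose while leukocyte markers fell. In the cytokine list 11 of 14 counted were higher, 1 lower and 1 kept (median 1.93). Ccl2, a monocyte chemokine, rose from 1.35 and 1.33 FPKM to 46.4 and 37.5, Cxcl10, inducible by interferon, from 0.10 and 0 to 10.2 and 8.34, and Spp1, osteopontin, from 37.7 and 43.2 to 373 and 329. Cxcl12 fell from 47.9 and 40.6 to 2.76 and 2.43 (−3.79). The chemokine gene Ccl17, which is not in the list, fell further, from 150.6 and 160.2 to 0 and 0.11 (−7.41). Interferon response genes were higher for 3 of 16, Ifitm3, Irf7 and Mx1, and kept for 8, against 11.3% and 61% of all counted genes. The higher ones numbered 6 without quantile normalization or with median-ratio scaling and 5 without granulosa cell library 1.

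Stress-linked lists had members past the rule in both directions. Of 16 genes of the p53 list 5 were higher, 1 lower and 6 kept, against 11.3%, 8.44% and 61% of all counted genes. Gdf15, a stress-induced cytokine, rose from 2.49 and 1.76 FPKM to 185 and 140 (5.48), and Phlda3 from 13.2 and 14.3 to 129 and 125, while Trp53 itself was at 69.4 and 49.4 against 60.7 and 45.4. Immediate early genes, of which 4 of 19 were past the rule against 19.8% of all counted genes, were higher for Fosl1 (1.02 and 1.78 to 14.6 and 15.3) and Zfp36, and lower for Myc (123 and 124 to 21.2 and 20.9) and Klf6, with 8 kept. With median-ratio scaling 5 of these were higher. Leaving out granulosa cell library 1 or day 16 library 1 gave 4 higher, and leaving out granulosa cell library 2 or day 16 library 2 gave 4 lower.

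Among S100, galectin and annexin genes 5 of 20 were higher, 2 lower and 10 kept, against 11.3%, 8.44% and 61% of all counted genes. Without quantile normalization or with median-ratio scaling 8 were higher. S100a4, a marker of mesenchymal cells, rose from 6.78 and 9.01 FPKM to 145 and 104, and Anxa5 fell from 545 and 589 to 198 and 170. Of 22 counted HOX genes 5 were higher and none lower, 11 were kept, and 10 were higher with median-ratio scaling and 11 without day 16 library 2. Hoxa10 rose from 0 in both granulosa cell libraries to 3.03 and 3.26, Hoxa11 from 0 to 1.39 and 1.94, and Hoxc13 from 0.02 and 0 to 2.11 and 1.78, while Hoxb9 was kept at 14.2 and 11.4 against 21.5 in both.

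**Figure D5:**
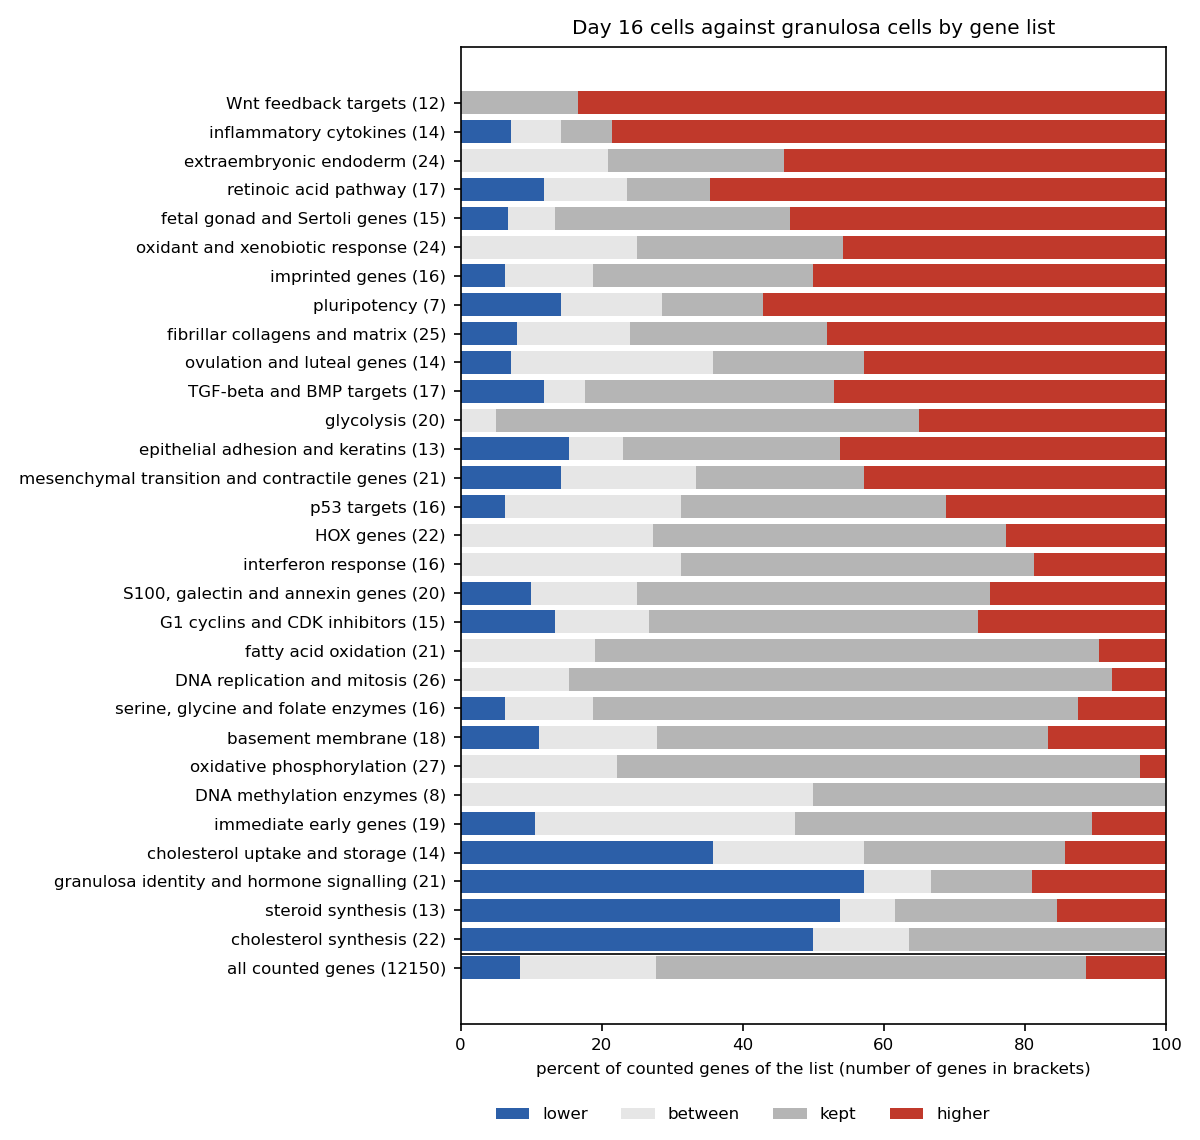
Share of the counted genes of each of 30 lists (x axis, percent) that were lower, between, kept or higher in day 16 cells, ordered by higher minus lower, with all 12150 counted genes at the bottom. Wnt feedback (10 of 12 higher), cytokine (11 of 14) and retinoic acid (11 of 17) lists stood far above the 11.3% of all genes, and steroid synthesis, granulosa identity and cholesterol synthesis far beyond the 8.44% that were lower. The lists were chosen with earlier results of these data known, so these distances are descriptions and no evidence for the lists.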

How the data were processed

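RNA was sequenced from 39 mouse samples. A Qiagen kit for total RNA and the NEBNext Ultra kit for libraries were used, per the labels' protocols. The submitters' processing notes name the mm10 build and list Bowtie2, HISAT2, RSEM, DESeq2 and R 3.4.2 without a role for any. The authors deposited FPKM values rounded to 0.01, per the file headers and values, in 5 tables of which 3 were used. The used tables had 0 per-sample columns without a sample or group. The fibroblast column gave its group and no number.

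Symbols that a spreadsheet had turned into dates (26 or 27 a table) were left out. Symbols in all 3 tables were joined, log2(FPKM + 1) was quantile normalized over the 4 libraries, and genes at 1 FPKM in at least 2 libraries were counted. No test was run, because the groups lie in tables made separately. Transcript lengths (97.1% of counted genes) and positions came from GENCODE M21 (GRCm38), start regions from RefSeq (GRCm38.p6). Python 3.11.15, numpy 2.4.6, pandas 2.3.3 and scipy 1.17.1 were used, and the counting was tested on simulated data.

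Named genes were the 12 largest differences each way with a mean of at least 5 FPKM in the higher group, without predicted and small RNA genes, the 8 kept granulosa-enriched genes of highest mean, up to 4 genes past the rule and 2 kept genes in each of 30 lists, and the 4 label markers. Other list members and genes named in the text were chosen after their values were seen. Members, 30 gene lists and 11 marker lists were chosen with earlier results of these data known. Not every gene that the rule took is reported here.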

Additional observations from a re-analysis of the deposited data

How the results depend on the processing

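The count of higher genes was 1581 without quantile normalization, 1690 with median-ratio scaling, 1685 with a pseudocount of 0.1 and 1378 with the length trend removed, and that of lower genes 832, 751, 1512 and 944. Leaving out each library gave 1476 to 1739 higher, 1164 to 1744 lower and 7759 to 8714 kept genes. With no minimum gap between the groups, or a span under 0.5 log2 for kept genes, there were 4433 higher, 5525 lower and 1531 kept genes, and 344 granulosa-enriched genes were lower. With a gap of 2 log2 there were 567 higher and 247 lower genes, 133 granulosa-enriched genes were lower and 107 fibroblast-enriched genes higher. Without the filter on low values 11964 genes were kept. These counts follow from stricter or looser rules, fewer libraries or more genes, and the cause of the effect of scaling was not tested. Of 123 named genes past the rule, 0 reversed under any alternative, and all 123 stayed past it in the same direction under the other scalings, pseudocount and filters and without either granulosa cell library. With the length trend removed 119 did so (not Acaa1a, Col4a6, Psph and Rrm2), without day 16 library 1 it was 122 (not Cdt1), and with a gap of 2 log2 it was 95. The filters cannot change the class of a named gene, since values were normalized before filtering. Leaving out a library cannot narrow a gap, apart from shifts of the normalization. Neither setting is therefore a check of these genes, which were chosen as past the rule. Of 65 named kept genes, 55 were kept without quantile normalization, 53 with median-ratio scaling and 7 with a span under 0.5 log2. With the length trend removed 55 of 64 were kept (not Gcsh, Lif, Mt2, Npc2, Rarg, S100a11, Sox9, Tdg and Tpm1). Lif and Znrf3 were not kept with a pseudocount of 0.1, nor was Znrf3 without day 16 library 1. Summing repeated symbols was not run, since none but the date symbols was repeated. No paired analysis was possible because the results come from no test. Depth is unknown in these tables, values under 1 FPKM cannot be told from 0 with a stated precision, and the pseudocount understates the change of low genes.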

Other observations

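Outside the joined symbols, 469 reached 1 FPKM in at least 2 of granulosa cell library 1 and the 2 day 16 libraries without a value used here for granulosa cell library 2. They were compared on deposited log2(FPKM + 1) with granulosa cell library 1 alone, with no replicate check. By the same gap, 77 were higher and 28 lower in day 16 cells. H19, an imprinted growth-restraining RNA that neighbours Igf2, was at 0.86 FPKM in that library and at 442 and 375 in day 16 cells. Other imprinted RNAs went both ways. Airn was at 1.15 and then at 14.95 and 10.88, Meg3 at 129.8 and then at 51.8 and 56.1, and Rian at 63.0 and then at 25.8 and 27.5. Prl2c5, a further proliferin copy, was at 0 and then at 65.2 and 63.5, and Sprr2g, an epithelial cornified envelope gene, at 0 and then at 86.4 and 73.7. Foxl2os, the transcript opposite Foxl2, was at 13.6 and then at 3.4 and 4.29 while Foxl2 was kept, and reads of overlapping genes cannot be told apart without strand. Bc1, a small cytoplasmic RNA, was at 779 and then at 13.8 and 12.8, and Malat1, a nuclear RNA, at 167 and then at 62.4 and 72.2.

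Disagreement between the 2 granulosa cell libraries, which come from different tables, was concentrated in few genes, 74 of 12150 being 1 log2 or more apart. Besides Slc7a11 they included Mrgpra6 (43.4 and 0.10 FPKM), Snx22 (0.71 and 41.9), Acat3 (0.95 and 32.5) and Mxd3 (1.91 and 29.1). The cause was not tested.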
